A study of Mus musculus with 6 samples.

Results

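The Clca family of chloride channel regulators was followed in whole-kidney extracts of Vhl knockout and wild-type mice. Its members were the rows of the array whose Entrez Gene identifier carries the symbol Clca1, Clca2, Clca3a1, Clca3a2, Clca3b, Clca4a or Clca4b. All 7 had a row, out of 25206 rows in all. The family was chosen by the log2 difference between the genotypes in these same arrays, so the values of its members are a description and carry no test. RNA came from 3 Vhl knockout and 3 wild-type kidney samples. The knockout samples are labelled as having the floxed Vhl allele together with Hoxb7-Cre-GFP. Labels of the wild-type samples give a floxed Vhl allele and name no Cre. All were from male C57BL/6 mice aged 3 months and received no treatment. The Hoxb7 promoter drives Cre in the collecting duct lineage. The paper also reports loss of VHL protein in cultured tubule cells from such mutant mice, which its methods call proximal. Whole-kidney extracts hold many other cells too, and which cells kept Vhl was not measured here. The study's methods describe the wild-type mice used for cultured tubule cells as carrying Hoxb7-Cre-GFP, but do not say so for the kidneys put on arrays. If these had no Cre, loss of Vhl and presence of the transgene cannot be told apart. Each sample was read on 1 Affymetrix Mouse Gene 2.0 ST array. Values are log2 signals after RMA, which corrects background and normalizes the arrays to each other. Whether the arrays stand for separate mice is not stated outright. The p-values from limma set the genotype difference against the spread between these samples within a genotype, which may be partly technical.

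The arrays correlated with others of their own genotype at a mean r of 0.992 to 0.994 over all rows, against 0.987 to 0.991 with the other genotype. Proximal tubule markers averaged 10.95 to 11.03 on the knockout arrays and 11.03 to 11.09 on the wild-type arrays, far above array medians of 5.02 to 5.05. The Vhl row showed a log2 change, knockout minus wild-type, of 0.03 (standard error, SE, 0.072; adjusted p = 0.860 in limma). The exons it reads were not looked up, so the row is no check of the genotype labels. Genes typical of fat cells were high on the arrays of knockout replicates 1 and 3 only.

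CLCA proteins were first described as calcium-activated chloride channels. They are now known as secreted or membrane-bound proteins with a protease-like domain that cleaves the protein itself, and human CLCA1 raises chloride current by keeping the channel TMEM16A, encoded by Ano1, at the cell surface. Mouse Clca1, also called gob-5, is made by mucus-secreting goblet cells and is induced in the airway by interleukin 13. Human CLCA2 is a p53-induced protein of stratified epithelia. Mouse Clca3a1 is found on lymphatic endothelium, where it binds leukocyte integrins, and Clca3a2 was described in the involuting mammary gland. Clca4a is made by enterocytes of the gut. The human counterpart of the mouse Clca3 genes is a pseudogene. Several old symbols were reused (Clca2 is an older name of Clca3a2, and Clca1 of Clca3a1), and rows were therefore matched by Entrez identifier.

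The family lies in a single cluster on mouse chromosome 3, where the RefSeq gene order runs Clca3a1, Clca3a2, Clca3b, Clca4b, Clca4a, Clca1 and Clca2. RefSeq promoter windows of the build GRCm38.p6 were used for 3 of the 7 members, Clca3a1, Clca4b and Clca2. The windows of Clca3a1 and Clca4b border the annotated gene, whereas that of Clca2 lies inside it. The 250 bases before the start of Clca3a1, at chr3:144760978-144761227 on the minus strand, are shown because this gene read higher in the knockout kidneys.
Clca3a1: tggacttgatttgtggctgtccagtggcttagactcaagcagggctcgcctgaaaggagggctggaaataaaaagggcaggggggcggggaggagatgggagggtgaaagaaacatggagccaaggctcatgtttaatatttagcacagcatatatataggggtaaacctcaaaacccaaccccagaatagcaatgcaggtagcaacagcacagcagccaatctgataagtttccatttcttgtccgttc

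Both strands of the 3 windows were searched for 4 motifs. The core of the hypoxia response element, ACGTG, which HIF proteins bind, had no match in any of them, and 16.6% of 32851 mouse promoter windows of the same length held it. The STAT motif TTCNNNGAA and the STAT6 motif, whose arms lie 1 base further apart, had none either, with 7.02% and 5.85% of all windows holding them. TATAAA, held by 12.4% of all windows, matched only in Clca4b. No capitals are used in the printed sequence, since none of the 4 motifs was found there. These are matches of letters in a short window and say nothing about binding.

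Clca3a2 and Clca3a1 read higher on every Vhl knockout array than on any wild-type array. Clca3a2 (Entrez 80797) had log2 signals of 6.10, 5.57 and 5.12 in the knockout kidneys, against 3.58, 3.41 and 3.54 in the wild-type kidneys. The groups did not overlap, with a gap of 1.54 between the lowest knockout and the highest wild-type signal, and the knockout arrays spread more widely. In whole-kidney extracts, more cells of a type and more RNA per cell cannot be told apart. The means were 5.60 ± 0.491 and 3.51 ± 0.091 (SD, n = 3 arrays each), and the log2 change was 2.09 (SE 0.223), or 4.25-fold. The row stood at percentiles 51.0 to 64.1 of all rows of its array in the knockout kidneys, and at percentiles 22.6 to 24.9 in the wild-type kidneys. It ranked 12 of 25206 rows by log2 change from the highest.

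Clca3a1 (Entrez 12722) had log2 signals of 7.32, 6.18 and 5.93 in the knockout kidneys, against 4.53, 5.27 and 4.97 in the wild-type kidneys. The groups did not overlap, with a gap of 0.66, but replicate 1 of the knockout stood well above the others. The means were 6.48 ± 0.737 and 4.93 ± 0.372 (SD, n = 3 arrays each), and the log2 change was 1.55 (SE 0.359), or 2.93-fold, which ranked 35 of 25206 rows. Without that array the log2 change was 1.13. The difference between Clca3a2 and Clca3a1 within an array moved by only 0.54 between the genotypes, and its ranges overlapped, from -1.21 to -0.61 on the knockout arrays and from -1.87 to -0.95 on the wild-type arrays.

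Clca3b (Entrez 229927), which lies next to Clca3a2 in the cluster, did not follow it. Its log2 signals were 3.38, 3.27 and 3.20 in the knockout kidneys, against 3.02, 3.14 and 3.20 in the wild-type kidneys, a log2 change of 0.16 (SE 0.085). The groups met at 3.20. Within an array, Clca3a2 minus Clca3b was 2.72, 2.29 and 1.92 in the knockout kidneys, against 0.56, 0.26 and 0.34 in the wild-type kidneys, a move of 1.93. The positions of the array's probes were not used here, so whether probes of these similar genes share signal was not tested. Clca3b stood at percentiles 20.2 to 23.5 of its array in the knockout kidneys and 16.9 to 19.8 in the wild-type kidneys.

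The 4 remaining members were dim, between percentiles 0.1 and 40.0 of their arrays. Clca1, the goblet cell member (Entrez 23844), had log2 signals of 3.68, 3.69 and 3.87 in the knockout kidneys, against 3.66, 3.70 and 3.94 in the wild-type kidneys, a log2 change of -0.02 (SE 0.103). Clca2 (Entrez 229933) had 3.71, 3.62 and 3.68 in the knockout kidneys, against 3.50, 3.54 and 3.66 in the wild-type kidneys, a log2 change of 0.11 (SE 0.077). In both rows the groups overlapped. Clca4a, the enterocyte member (Entrez 99663), had log2 signals of 3.55, 4.03 and 3.98 in the knockout kidneys, against 4.45, 4.11 and 4.14 in the wild-type kidneys. Its groups did not overlap, with the knockout arrays lower by a gap of 0.09, and the log2 change of -0.38 (SE 0.152) became -0.23 without knockout replicate 1. Clca4b (Entrez 99709) had log2 signals of 1.12, 2.07 and 1.95 in the knockout kidneys, against 2.22, 1.93 and 1.60 in the wild-type kidneys, the dimmest row of the family. Its log2 change was -0.20 (SE 0.264), and 0.09 without knockout replicate 1, so its sign rests on that array.

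**Figure D1:**
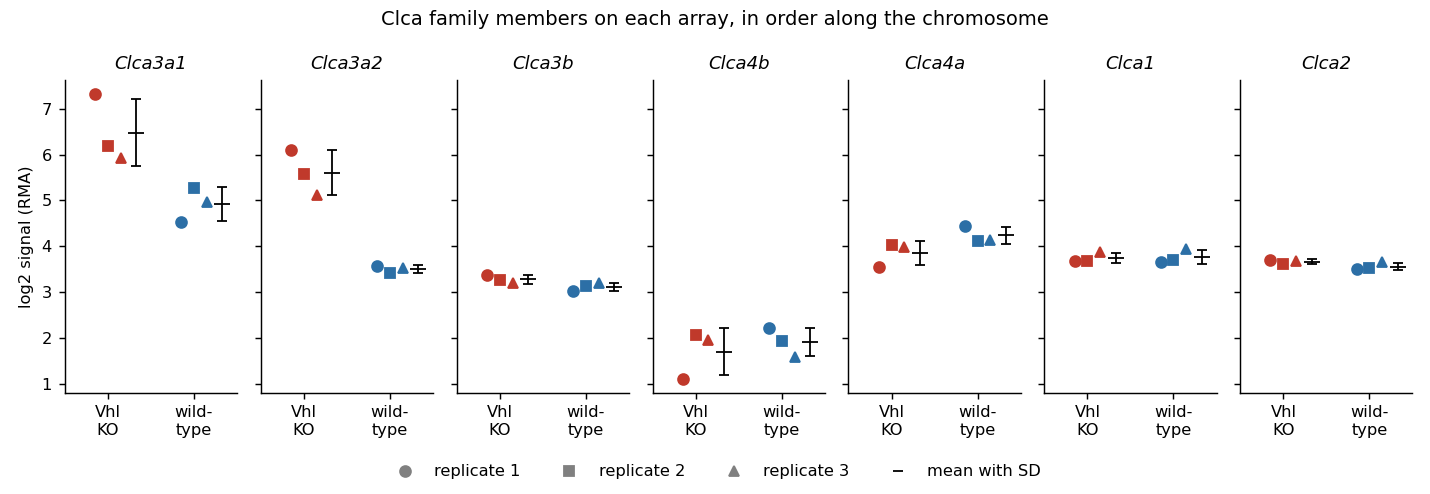
Log2 signal (RMA) of the 7 Clca members on each of the 3 Vhl knockout (red) and 3 wild-type (blue) arrays, with marker shapes for the replicates and black bars for the mean with SD. Clca3a1 and Clca3a2 stand apart between the genotypes, with knockout arrays at 5.12 or above, while the other members stay below 4.5 on every array.

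Across all rows, limma with Benjamini-Hochberg adjustment called 565 rows higher and 132 lower in the knockout (adjusted p under 0.05), which is 2.24% and 0.524% of the rows tested, or 2.77% in either direction. Among the 7 Clca members, Clca3a2 was the 1 higher call, no member was a lower call and 6 fell short of the threshold. At an unadjusted p under 0.05 from limma, 3 of the 7 were called, Clca3a2, Clca3a1 and Clca4a, against 17.0% of all rows. Groups that did not overlap were found in 2 members in the higher direction, against 11.2% of all rows, and in 1 member in the lower direction, against 12.7%, so 3 of 7 against 23.8% in either direction. Since the family was chosen with this contrast known, nothing is read from these counts. With the mean level of fat cell genes as a covariate no member was called, and the log2 change of Clca3a2 was 1.88. Limiting the fit to brighter rows, those over the median of their array in 3 or more arrays, kept only 2 of the 7 members, Clca3a2 and Clca3a1, and both were called there. Clca3a2 passed that limit only through its 3 knockout arrays, and Clca3a1 through these and 1 wild-type array, so the second call adds no support.

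Genes around the cluster gave no call. Of 12 named genes that flank it, 6 on either side, limma called none higher and none lower, and at an unadjusted p under 0.05 there was 1 higher and none lower. Their median log2 change was 0.01, beside -0.03 for all rows. Next to Clca3a1, the membrane-curving protein gene Sh3glb1 had a log2 change of 0.11 (adjusted p = 0.478), the selenoprotein gene Selenof 0.01 (adjusted p = 0.975) and the heparan sulphate sulphotransferase gene Hs2st1 0.20 (adjusted p = 0.342). Further out, Lmo4, Pkn2 and Gtf2b lay within 0.05 of 0 (adjusted p from 0.888 to 0.993). On the Clca2 side, Odf2l had -0.14 (adjusted p = 0.348), the collagen chain gene Col24a1 -0.03 (adjusted p = 0.903) and Znhit6 -0.05 (adjusted p = 0.842). Ddah1, whose enzyme breaks down an inhibitor of nitric oxide synthase, had -0.02 (adjusted p = 0.936), and Bcl10, a signalling adaptor upstream of NF-κB, had 0.12 (adjusted p = 0.578).
Ccn1, which encodes a secreted matrix-associated protein, was the neighbour with the largest difference. Its log2 signals were 7.99, 8.46 and 8.38 in the knockout kidneys, against 7.16, 7.75 and 7.51 in the wild-type kidneys, so the groups did not overlap. The log2 change of 0.80 (SE 0.177) missed the threshold in limma (adjusted p = 0.0666) but passed it when array weights were used (adjusted p = 0.0466), over the brighter rows alone (adjusted p = 0.0327), and when eBayes was run with a trend and robustly (adjusted p = 0.0391). With 1 array left out the adjusted p was 0.0704 to 0.171.

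**Figure D2:**
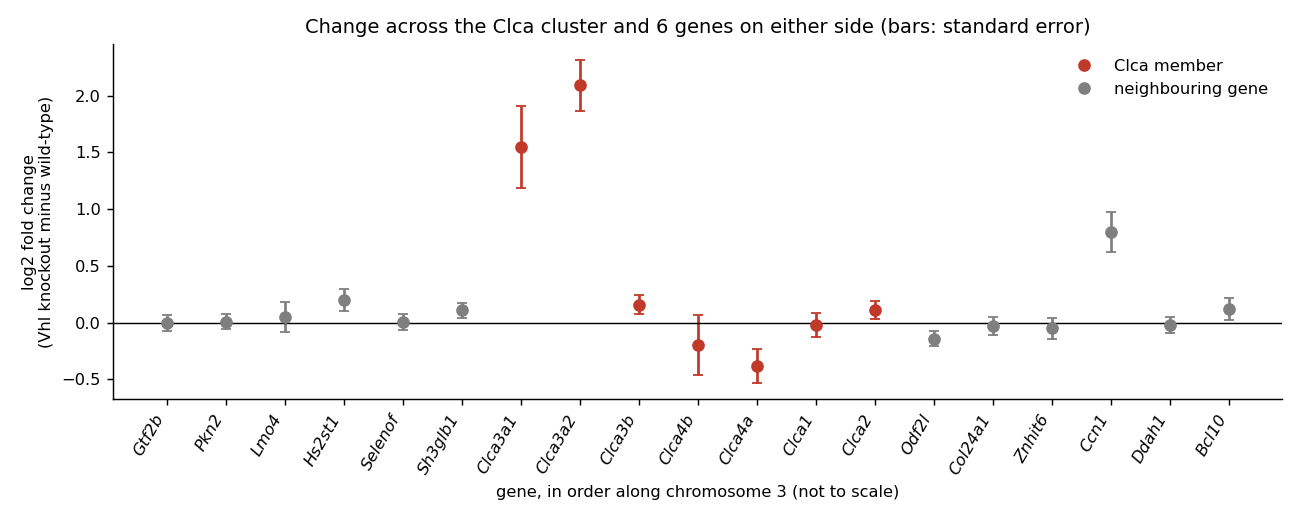
Log2 fold change (Vhl knockout minus wild-type, bars for the standard error) of the 7 Clca members (red) and 6 neighbouring genes on either side (grey), in their order along chromosome 3 and not to scale. The values of Clca3a1 (1.55) and Clca3a2 (2.09), which are neighbours, stand above all others, and Ccn1 (0.80) follows.

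The genes whose log2 signals followed Clca3a2 most closely over the 6 arrays were Lox (Pearson r = 0.998), F2r (r = 0.995), Tmem98 (r = 0.995), Fxyd5 (r = 0.995) and Ctse (r = 0.994). They were the top 5 of 948 named rows that spanned at least 1 on the log2 scale, of which 117 had an r over 0.95. Lox, the collagen crosslinking enzyme, had log2 signals of 7.30, 6.77 and 6.38 in the knockout kidneys, against 5.05, 4.66 and 4.86 in the wild-type kidneys. F2r is the thrombin receptor, Fxyd5 a regulator of the sodium pump and Ctse an aspartic protease, and their log2 changes were 0.94, 1.04 and 1.25. Clca3a1 came only at rank 176 of the 948 by this measure (r = 0.927). All points share the contrast of the genotypes, which sets most of each r, so these values describe likeness over 6 arrays and carry no p.

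Genes for proteins reported to act with CLCA proteins were read next. Of the 5 reported partners, 3 were higher (Ano1, Itgam and Itgb2), 0 lower and 2 short of the threshold in limma. Of all rows 2.24% were called higher. At an unadjusted p under 0.05 from limma, 4 were higher and none lower. The median log2 change was 0.77, beside -0.03 for all rows. This short list joins partners of different members. Ano1 goes with CLCA1 and Itgb4 with CLCA2, whose mouse rows changed by -0.02 and 0.11. Itgam, the alpha chain of the leukocyte integrin Mac-1, had log2 signals of 5.81, 5.47 and 5.42 in the knockout kidneys, against 4.38, 4.51 and 4.61 in the wild-type kidneys. It rose by 1.06 on the log2 scale (SE 0.122, adjusted p = 0.00762). Its beta chain Itgb2 had 6.24, 6.21 and 6.33 in the knockout kidneys, against 5.37, 5.71 and 5.39 in the wild-type kidneys, and rose by 0.77 (SE 0.107, adjusted p = 0.0144). Without knockout replicate 1 or 3 or wild-type replicate 1 or 3 Itgb2 did not pass (adjusted p up to 0.0617). Itgal, the alpha chain of LFA-1, had a log2 change of 0.36 (adjusted p = 0.333), and Itgb4, the integrin chain bound by human CLCA2, had 0.47 (adjusted p = 0.0926). Mac-1 is carried by macrophages and neutrophils. In the same arrays 6 of 8 macrophage markers were higher, while Csf1r and Cx3cr1 did not pass. The part of such cells in the signals of Itgam and Itgb2 was not tested.

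Ano1, the calcium-activated chloride channel that CLCA1 acts on, was the single call among 37 measured chloride channel genes outside the family. Its log2 signals were 6.45, 6.19 and 6.49 in the knockout kidneys, against 5.59, 5.52 and 5.46 in the wild-type kidneys, with no overlap. It rose by 0.85 on the log2 scale (SE 0.101, adjusted p = 0.00849 from limma), and passed with each array left out (adjusted p from 0.0125 to 0.0414). With the fat cell covariate its log2 change was 0.69 (adjusted p = 0.0780), and none of the genes called in the 4 lists passed there or without knockout replicates 1 and 3. None of the other 36 passed in either direction. At an unadjusted p under 0.05, 5 of the 37 were higher and 5 lower, and the median log2 change of the list was -0.01, beside -0.03 for all rows. Lrrc8c, a subunit of the volume-regulated anion channel, had 0.51 (adjusted p = 0.233). Among the other anoctamins, Ano5 had 0.38 (adjusted p = 0.0586), Ano6 0.04 (adjusted p = 0.841) and Ano10 -0.01 (adjusted p = 0.984). Cftr, the cyclic AMP-gated chloride channel, had -0.18 (adjusted p = 0.589). Of the 39 genes listed, 37 had a named row.

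Genes of type 2 cytokine signalling, which induces Clca1 in the airway, gave 1 higher, none lower and 19 not past the threshold of 20 measured, with a median log2 change of 0.11 and, at an unadjusted p under 0.05 from limma, 6 higher and 1 lower. The call was Jak3, a kinase of cytokine receptors, named because it was the list's single call, with a log2 change of 0.55 (adjusted p = 0.0218). It passed only without knockout replicate 1 when single arrays were left out (adjusted p up to 0.0906). Retnla, a marker of alternatively activated macrophages that fat tissue also makes, had log2 signals of 3.81, 2.28 and 3.34 in the knockout kidneys, against 1.97, 2.06 and 1.82 in the wild-type kidneys, high in the replicates where fat cell genes were high (log2 change 1.19, adjusted p = 0.143). Without knockout replicate 2 it passed (log2 change 1.62, adjusted p = 0.0145), and with the fat cell covariate its log2 change was 0.35 (adjusted p = 0.336). The epithelial alarmin Il33 had 7.41, 6.71 and 6.95 in the knockout kidneys, against 5.92, 6.39 and 6.09 in the wild-type kidneys (log2 change 0.89, adjusted p = 0.0663). Over the brighter rows alone Il33 passed (adjusted p = 0.0329), as when eBayes was run with a trend and robustly (adjusted p = 0.0391). Il13 had -0.03 (adjusted p = 0.951), Il4 -0.19 (adjusted p = 0.470) and Stat6 0.07 (adjusted p = 0.694), but 12 of the 20 rows were dim, under the median of each of the 6 arrays.
Of 19 genes of mucus-secreting epithelium, 1 was higher, 0 lower and 18 short of the threshold, with 2 higher and 1 lower at an unadjusted p under 0.05 from limma and a median log2 change of -0.04. Muc1, a membrane mucin also made by distal kidney tubules, had log2 signals of 8.09, 7.87 and 7.67 in the knockout kidneys, against 7.10, 6.97 and 6.66 in the wild-type kidneys. It rose by 0.96 on the log2 scale (SE 0.148, adjusted p = 0.0196), and lost the call without knockout replicate 1 or 2 or wild-type replicate 2 or 3 (adjusted p up to 0.0651). Fcgbp, a mucus protein, had 0.48 (adjusted p = 0.0645). The gel-forming mucins Muc2, Muc5ac and Muc5b had 0.29, -0.21 and -0.02, and the goblet cell regulators Spdef and Foxa3 -0.19 and -0.29, with adjusted p from 0.178 to 0.951. As in the cytokine list, most rows were dim, 15 of 19 under the median of every array.

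**Figure D3:**
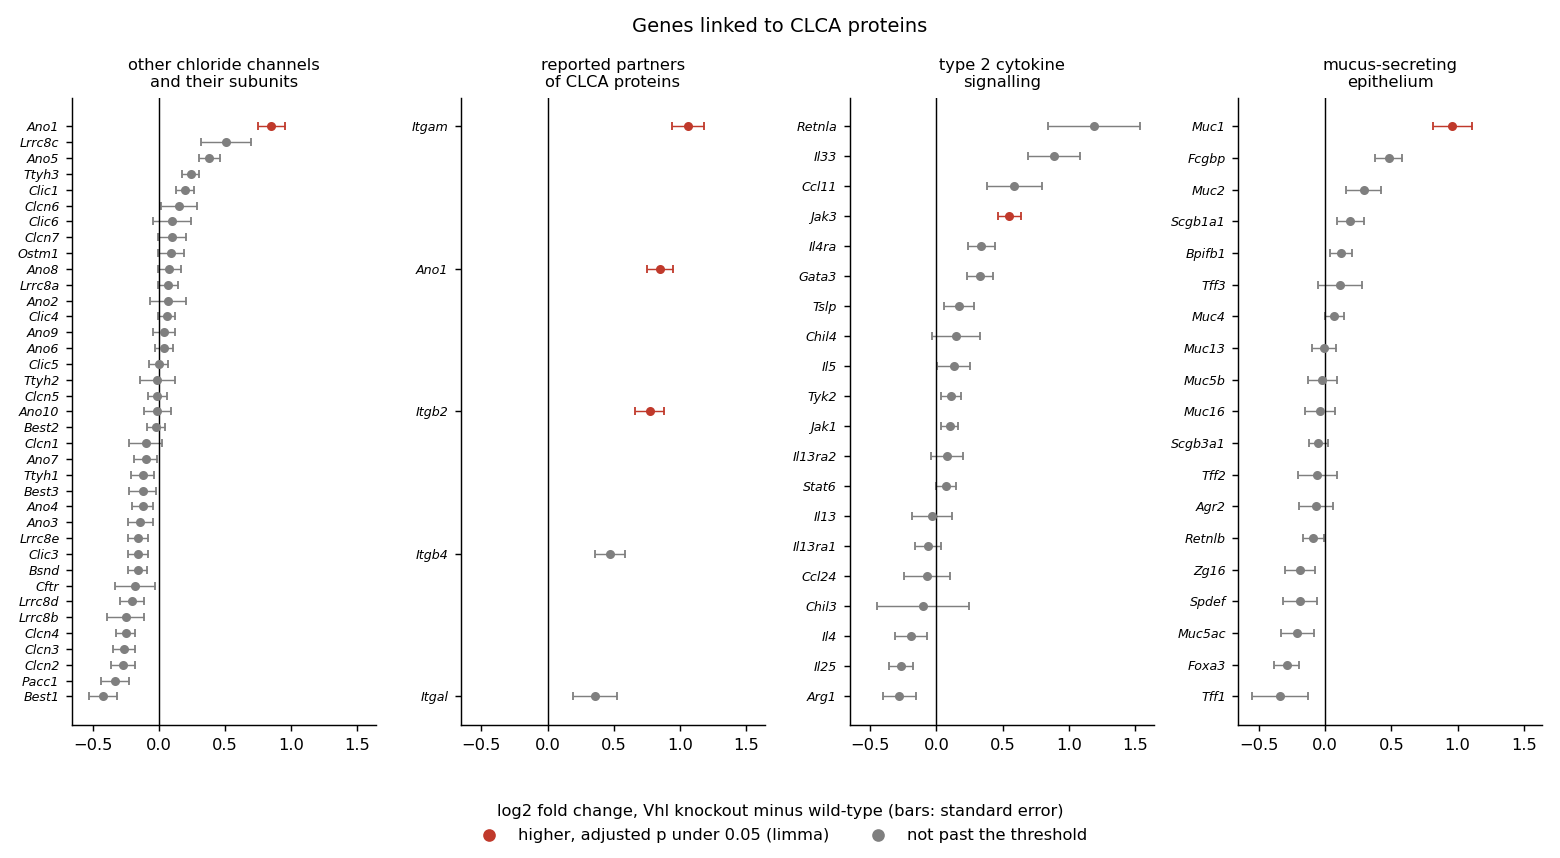
Log2 fold change (Vhl knockout minus wild-type, bars for the standard error) of the genes of 4 lists linked to CLCA proteins. Red points passed the test in limma (Ano1, Itgam, Itgb2, Jak3 and Muc1) and grey points did not. No gene of these lists passed in the lower direction.

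Markers of several cell types moved in the same arrays as Clca3a2 and Clca3a1. Of all rows, limma called 2.24% higher and 0.524% lower, and the counts of markers stand beside these shares. Of 12 urothelial and squamous markers, 8 were higher and none lower. Their mean level was 5.44 to 5.66 on the knockout arrays, against 4.92 to 4.94 on the wild-type arrays. Upk1b, a urothelial membrane protein, rose by 1.44 (adjusted p = 0.00523) and the basal cell keratin Krt5 by 0.90 (adjusted p = 0.0150). Trp63, the transcription factor of basal cells, had 0.12 (adjusted p = 0.568). The keratins Krt6a and Krt13 of the same list leaned lower, at -0.40 and -0.23 (adjusted p = 0.289 and 0.521 in limma). Fibroblast markers averaged 6.74 to 6.93 on the knockout arrays and 5.70 to 5.94 on the wild-type arrays, and 6 of 8 were higher. Macrophage markers averaged 6.98 to 7.07 on the knockout arrays and 5.78 to 6.04 on the wild-type arrays, with 6 of 8 higher. Injured tubule markers averaged 7.46 to 8.01 on the knockout arrays and 6.11 to 6.15 on the wild-type arrays, with 6 of 8 higher. The mean levels of these 4 lists did not overlap between the genotypes. Nor did those of the lymphatic and blood endothelial lists, or of mesothelial markers (4.58 to 4.74 on the knockout arrays, 4.19 to 4.33 on the wild-type arrays). Collecting duct markers did not overlap in the lower direction. Of all single rows 23.8% did not overlap in either direction, but no such share was computed for means of lists. Krt20 is in both the urothelial and the injured tubule list. The part of these cell types in the signal of the Clca rows was not tested.
Of 6 measured markers of lymphatic endothelium, where Clca3a1 is known to be made, 1 was higher and none lower. They averaged 5.71, 5.42 and 5.48 on the knockout arrays, against 5.38, 5.34 and 5.23 on the wild-type arrays. Pdpn, which other stromal cells and injured tubules also express, rose by 0.77 (adjusted p = 0.00375). The lineage factor Prox1 had -0.25 (adjusted p = 0.396), Lyve1 0.46 (adjusted p = 0.400) and Flt4 0.31 (adjusted p = 0.318). Of 9 blood endothelial markers, 1 was higher and none lower, and their mean was 8.25, 8.00 and 8.10 on the knockout arrays, against 7.79, 7.84 and 7.84 on the wild-type arrays. Of 6 mammary epithelial markers 2 were higher, the keratins Krt14, also in the urothelial list, and Krt18, also in the injured tubule list. The milk protein genes Csn2 and Wap had -0.17 and -0.49 (adjusted p = 0.733 and 0.119). Of 6 mesothelial markers 2 were higher, Krt19 and Upk3b, of which Upk3b is also in the urothelial list. Of 5 adrenal cortex markers none passed, all 5 being under the median of every array.
No fat cell gene was called by limma, higher or lower, with 3 of 7 higher and none lower at an unadjusted p under 0.05. They averaged 7.28, 5.09 and 6.49 on the knockout arrays, against 5.28, 5.12 and 4.87 on the wild-type arrays, so knockout replicate 1 was high, replicate 3 was raised and replicate 2 lay within the wild-type range. On the array of replicate 2, Clca3a2 read 5.57 and Clca3a1 6.18. Without replicates 1 and 3, the log2 change was 2.06 for Clca3a2 and 1.25 for Clca3a1. With the mean level of the fat cell genes as a covariate it was 1.88 for Clca3a2 and 1.07 for Clca3a1. Neither was called there, and Clca3a1 was not called in the main fit either. The part of fat cells in the signal of the Clca rows was not tested. Markers of the collecting duct, a lineage where Hoxb7-Cre is active, averaged 7.34 to 7.49 on the knockout arrays, against 7.66 to 7.72 in wild-type. The water channels Aqp4 and Aqp3 fell by 1.45 and 0.70 there (adjusted p = 0.0143 and 0.00684), and the other 8 did not pass. The lower mean came mostly from Aqp4 and Aqp3. The median log2 change of the list was -0.06, beside -0.03 for all rows, and Scnn1g (0.17) and Atp6v1g3 (0.10) leaned higher.

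**Figure D4:**
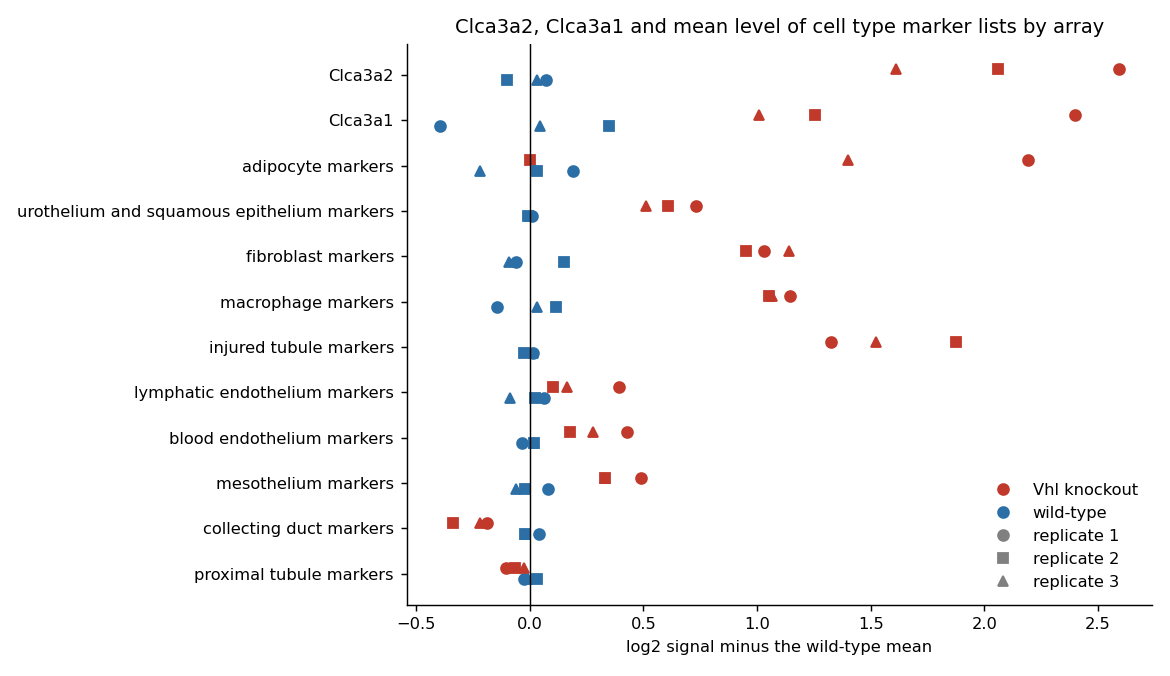
Log2 signal of Clca3a2 and Clca3a1, and mean log2 signal of 10 lists of cell type markers, each minus its wild-type mean, on the 3 Vhl knockout (red) and 3 wild-type (blue) arrays, with marker shapes for the replicates. Fat cell genes averaged 7.28, 5.09 and 6.49 on the knockout arrays, against 4.87 to 5.28 on the wild-type arrays, and were the list with the widest spread among knockout arrays.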

How the data were processed

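Total RNA of 6 whole-kidney samples was read on 1 array each. The values deposited by the authors are log2 signals from RMA, 1 per Entrez Gene row, in a value table and again in a table with their own comparison of the genotypes (a moderated statistic, p and q), whose results were not used. Software, version and genome build: not given in the sources used here. The log2 values of the tables were equal throughout (25206 rows). Genotype and replicate came from the sample titles. Symbols came from the platform annotation, updated by Entrez identifier through a RefSeq gene table (GRCm38.p6), in which 23185 rows matched and 2021 had no symbol here.

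The genotypes were compared by lmFit and eBayes of limma 3.58.1 (R 4.3.3) on every row, without covariates. The p-values were adjusted by Benjamini-Hochberg across the array, and 0.05 was the threshold. No test for the arrays is stated in the paper's methods. No p is given for the Clca members, and which of them passed a threshold is given as a description only. The members, lists and alternatives were chosen with earlier results of these data known. Genes were named by rule: all members and neighbours, for each list up to 4 genes past the threshold (if fewer than 2 passed, the 2 that changed most), and the 5 rows most like Clca3a2. Other list genes and markers were added for their role after values were seen. Arrays of 25206 rows, Vhl knockout and wild-type, were simulated with the real spread of each row and independent noise. Shifts shared by many rows of an array were not simulated, so the rates may not hold for the real arrays. In the simulated knockout, 50 genes were given each size of change. The fit found 30% of them at 0.5 on the log2 scale, 84% at 1 and 98% at 2. It called 9 of 25006 unchanged rows. Alternatives were quantile normalization, brighter rows only (over the median in 3 or more arrays), trend and robust eBayes, array weights, a block for the replicate number, the mean of the fat cell genes as a covariate, other thresholds and leaving out arrays. Arrays give no read depth, so their number limits the precision. Promoter sequences came from a RefSeq table of GRCm38.p6. Those of the other members are not reported here. Tables were made with Python 3.11.15 and pandas 2.3.3.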

Additional observations from a re-analysis of the deposited data

How the results depend on the processing

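The members were chosen by the genotype difference in these arrays. Neither the direction of their values nor their number past the threshold, in any setting, is therefore a sign of stability. With 1 array left out the log2 changes ran from 1.84 to 2.33 for Clca3a2 and from 1.13 to 1.82 for Clca3a1. The number of Clca members past the threshold, 1 higher, was also 1 with any 1 array left out, 2 at an unadjusted p under 0.05, 2 over the brighter rows (a limit that Clca3a2 passed only through its knockout arrays, so the count adds no support) and 0 with the fat cell covariate, with 1 lower at the unadjusted p.
Rows higher in the Vhl knockout kidneys numbered 223 to 361 with 1 array left out, 246 with the replicate number as a block, 96 with the fat cell covariate, 176 at an adjusted p under 0.01 and 2185 at an unadjusted p under 0.05. Without knockout replicates 1 and 3, a setting chosen after seeing the data in which the lone array is assumed to vary like the others, there were 8. Lower rows numbered 21 to 52 with 1 array left out, 262 over the brighter rows, 268 with trend and robust eBayes, 24 with the block, 3 with the covariate, 0 without replicates 1 and 3, 7 at the stricter and 2112 at the unadjusted threshold.
Of the 80 measured genes of the 4 lists, 5 were higher, against 2 to 4 with 1 array left out, 8 over the brighter rows, 3 with the block, 0 with the covariate and 0 without replicates 1 and 3. Among the 12 neighbours 1 passed, Ccn1, over the brighter rows, with trend and robust eBayes, with array weights and with the block, against 0 otherwise. The causes were not tested, beyond the smaller number of arrays where arrays were left out. The replicate number pairs the samples in name only: deviations of same-numbered arrays correlated at 0.036, 0.073 and -0.100 over all rows. Not every array correlated best with its own number. Under the block Itgb2 (adjusted p = 0.0623) and Jak3 (adjusted p = 0.0779) did not pass and Ccn1 did (adjusted p = 0.0307). Quantile normalization moved no count by over 1.5 times.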

Other observations

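The cluster also holds Clca4c-ps, a transcribed pseudogene that is not among the 7 members. Its log2 signals were 4.84, 4.65 and 4.99 in the Vhl knockout kidneys, against 5.67, 5.61 and 4.90 in the wild-type kidneys, so the groups overlapped at wild-type replicate 3. Its log2 change was -0.57 (SE 0.208; limma gave an adjusted p of 0.225).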
